A study of Mus musculus with 6 samples.

Results

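The genes described here are the heat shock proteins and chaperones of the mouse, taken as the protein-coding genes whose GENCODE symbols on GRCm38 begin with Hsp followed by a digit or a letter from a to e, with Dnaja, Dnajb or Dnajc and a digit, or with Cct and a digit from 2 to 8, together with Tcp1, Hsf1, Hsf2 and Bag3. This gives 85 genes of 21734 protein-coding genes and 49585 gene identifiers in the count tables. They were measured by stranded, polyA-selected RNA-seq in intestinal adenoma cells of C57BL/6 mice, grown in Matrigel in a medium with Noggin, R-spondin, EGF, basic FGF and a ROCK inhibitor. The 3 knock-out libraries carry IKKa FL/FL and the 3 wild-type libraries IKKa +/+, and both groups also carry APC min/+, a germline mutation of the tumour suppressor Apc, and Villin-Cre. Villin-Cre expresses the recombinase in the intestinal epithelium, and IKKa, encoded by Chuk, is a kinase of NF-kB signalling. The comparison asks how gene expression differs between adenoma cells with the floxed and with the intact IKKa gene.

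Molecular chaperones bind unfolded protein chains and help them to fold, to cross membranes or to be degraded. Hsp70 proteins do this in cycles of ATP hydrolysis that J proteins (the Dnaj genes) start and nucleotide exchange factors such as Bag3 end, while small heat shock proteins hold unfolded chains without ATP, Hsp90 acts late in the folding of kinases and hormone receptors, and the Hsp60 and CCT rings enclose their clients. Under heat or other protein damage the transcription factor Hsf1 switches on a subset of these genes, damage in the endoplasmic reticulum (ER) acts on another subset, and the mitochondria have chaperones of their own.

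Library depth was 26785922 to 31875723 counts in knock-out and 20749747 to 29752507 counts in wild type. Chuk had 28.9, 24.4 and 34.9 CPM (counts per 1000000, on library sizes scaled by TMM) in the knock-out libraries, against 101, 106 and 95.8 CPM in the wild-type libraries, a log2 fold change of -1.77 (SE 0.12, edgeR adjusted p = 8.6e-08). The labels speak of biological replicates without saying whether these came from separate mice, so the p-values cover only differences among these libraries, and that variation may be technical in origin. Knock-out replicate 2 stood apart from the other knock-out libraries (chi-square of counts per degree of freedom 36.4 and 37.0, against 5.64 between the other 2 and 12.3 to 20.0 among wild-type libraries). Sex-linked transcripts differed between the genotypes as well. Xist had 6 counts in all knock-out libraries together, against 95406 in wild type, and Ddx3y 4502 counts in knock-out, against 0 in wild type, so that sex and genotype cannot be told apart. Along chromosome 5 the median log2 fold change lay 0.43 above that of the other autosomes. Of 12 markers of intestinal epithelium all were detected, although Cdx1 had no count in knock-out and 6.38 ± 0.20 CPM in wild type (SD, n = 3). At an edgeR adjusted p below 0.05, 4 of the 12 were higher in knock-out (33.3%, against 30.4% of all genes). Lower were 7 (58.3%, against 27.0%). Epcam was at 412 ± 12.9 CPM in knock-out and 915 ± 30.6 CPM in wild type, and Krt19 at 3970 ± 557 CPM in knock-out and 1475 ± 161 CPM in wild type.

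Of the 85 genes, 77 had a count in at least 1 library and 69 had enough counts to be tested, 63 of them averaging 5 CPM or more. In knock-out, 20 of the 69 were higher and 16 lower at an adjusted p below 0.05 (edgeR quasi-likelihood test, adjusted over all 13759 genes tested). The 36 genes called make up 52.2% of those tested, against a background of 57.4% over all genes. The higher ones make up 29.0% against a background of 30.4%, and the lower ones 23.2% against 27.0%. The genotypes did not overlap in 42 of the 69 genes (60.9%), against 63.1% of all genes. These shares are near the background, so as a family the chaperones were not called more often than other genes, and their median log2 fold change was -0.02, against 0.00 over all genes. The changes were also small for most, with a median size of 0.28 on the log2 scale, against 0.46 over all genes. At least 2-fold higher were 5 members (7.25%, against 15.2% of all genes) and at least 2-fold lower 0 (against 9.83%). The split by direction depends on the scaling, with 18 members higher and 22 lower under upper-quartile scaling, where all genes gave 3851 higher and 4131 lower, in place of 4182 higher and 3714 lower. Without knock-out replicate 2 it was 20 higher and 22 lower, where all genes gave 4477 higher and 4422 lower.

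**Figure D1:**
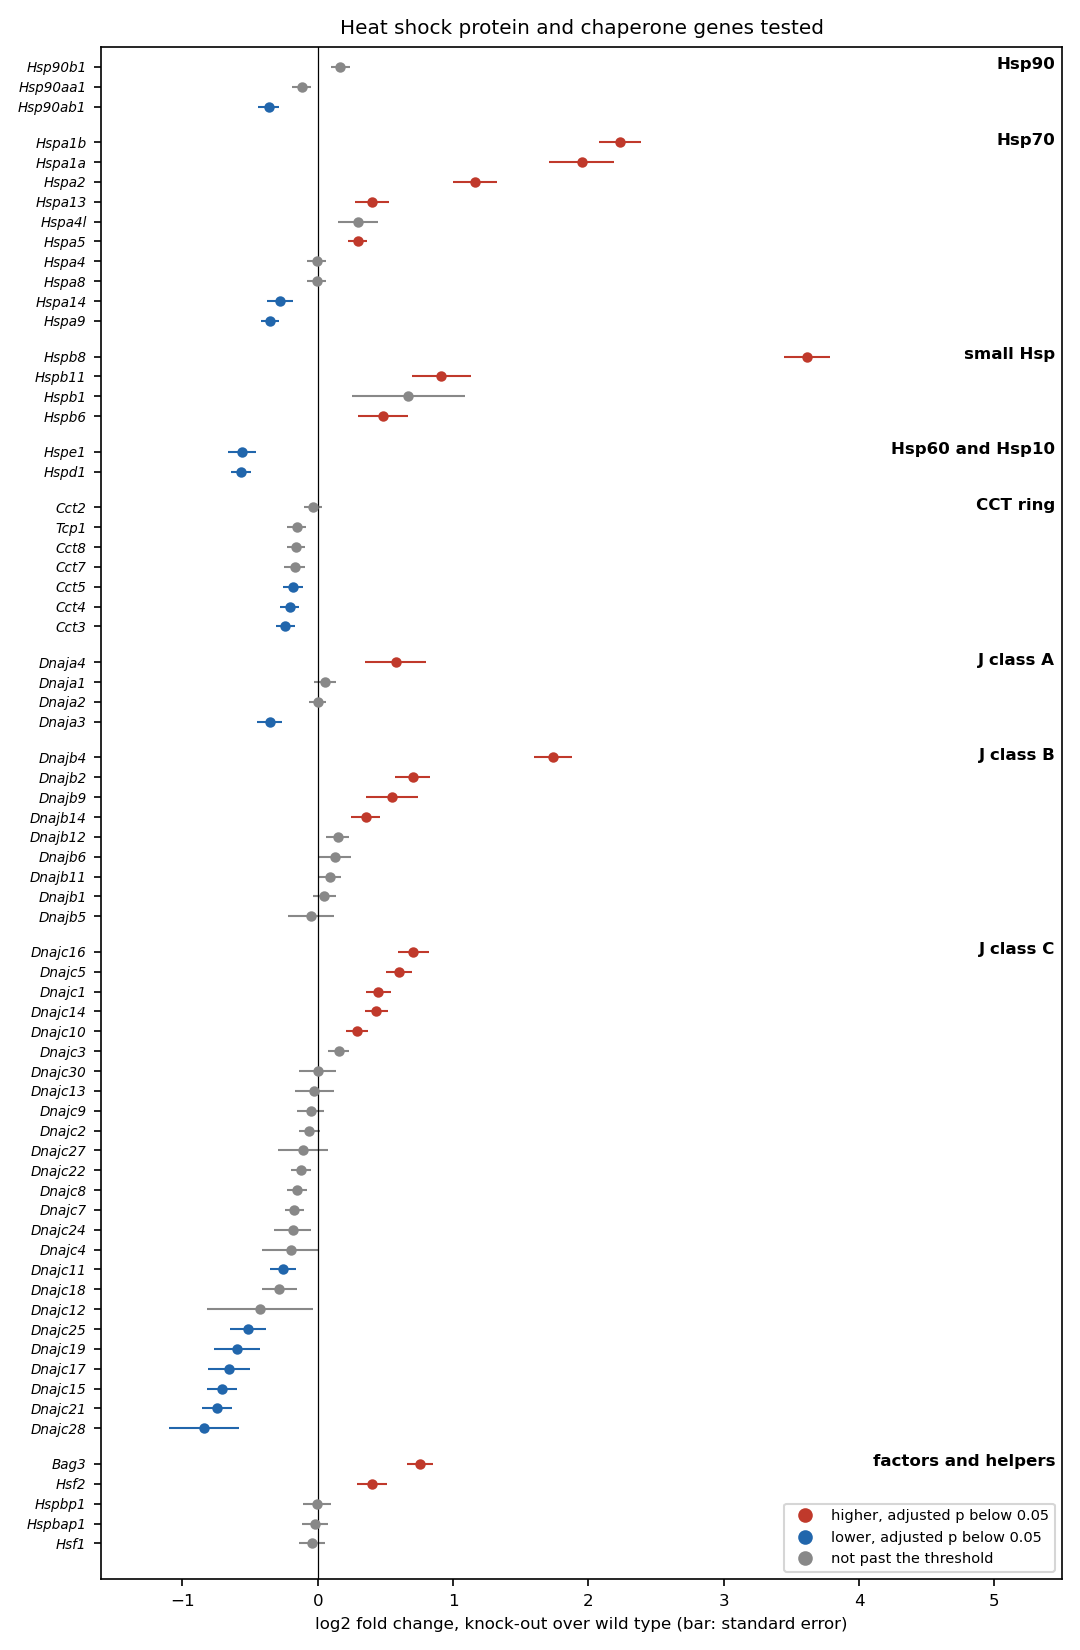
Log2 fold change (knock-out over wild type) of the 69 tested heat shock protein and chaperone genes, by role group, with standard errors as bars and colours for the call at an adjusted p of 0.05. Hspb8 (3.62), Hspa1b (2.23), Hspa1a (1.95), Dnajb4 (1.74) and Hspa2 (1.16) lie beyond 2-fold, and no member lies beyond 2-fold on the lower side.

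Together the members took 1.63 ± 0.040% of counts in knock-out and 1.78 ± 0.035% in wild type (SD, n = 3 each), or 16276.9, 16787.4 and 15909.3 CPM in knock-out libraries, against 17804.2, 17535.1 and 18042.8 CPM in wild-type libraries. All 3 knock-out libraries thus lay below all wild-type libraries in this sum. Most of it comes from a few abundant genes, and the sum of the 3 Hsp90 genes alone was 5047 ± 193 CPM in knock-out and 6019 ± 121 CPM in wild type. The genes with the largest rises are scarce by comparison, as given next. In these bulk samples, fewer cells of a type and less RNA per cell cannot be told apart.

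The largest rise was that of Hspb8, a small heat shock protein that works with the exchange factor Bag3 to send damaged proteins to autophagy. Hspb8 (ENSMUSG00000041548, GRCm38 chr5:116408491-116422864, minus strand) was at 43.3, 43.4 and 41.3 CPM in the knock-out libraries, against 2.38, 3.78 and 4.42 CPM in the wild-type libraries. The knock-out libraries were close to each other and all far above the wild type, a 12.3-fold difference (log2 fold change 3.62, SE 0.17, edgeR adjusted p = 3.8e-09). Hspb8 lies on chromosome 5, where 58.7% of genes with at least 5 CPM were called higher; of the 5 chromosome 5 members tested, it was the only one called. Bag3 was at 59.0, 62.1 and 56.8 CPM in knock-out, against 32.0, 35.2 and 38.2 CPM in wild type, so its genotypes did not overlap either (log2 fold change 0.76, SE 0.10, edgeR adjusted p = 3.1e-05). Cryab, the small heat shock protein known as alpha B-crystallin, falls outside the symbol rule. It was at 65.7, 76.8 and 63.1 CPM in knock-out, against 28.5, 27.8 and 30.8 CPM in wild type (log2 fold change 1.24, SE 0.10, edgeR adjusted p = 6.9e-07).

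Among the other small heat shock proteins, Hspb11, a subunit of the transport complex of cilia in spite of its name, was at 6.47 ± 0.78 CPM in knock-out and 3.50 ± 0.65 CPM in wild type (log2 fold change 0.91, edgeR adjusted p = 0.0033). Hspb6 was at 7.95 ± 0.27 CPM in knock-out and 5.65 ± 1.05 CPM in wild type (log2 fold change 0.48, edgeR adjusted p = 0.043). Hspb6 kept its call when wild-type replicate 3 was left out and lost it when any other library was. Hspb1, the classical Hsp25 of the mouse, was scarce, at 1.45, 1.54 and 0.936 CPM in knock-out, against 0.905, 1.11 and 0.483 CPM in wild type, with overlapping genotypes. Its log2 fold change of 0.67 (95% interval -0.25 to 1.59) did not pass the test (edgeR adjusted p = 0.195). Of the 50-base words in the Hspb1 transcripts, 50.1% also occur in transcripts of other genes, among them Hsp25-ps1, so reads of Hspb1 may have been left out or split, depending on a counting rule that the sources used here do not state. The 8 small heat shock protein genes summed to 58.8 ± 1.20 CPM in knock-out and 13.6 ± 1.85 CPM in wild type. Of this sum, Hspb8 alone gave 42.7 ± 1.22 CPM in knock-out and 3.53 ± 1.04 CPM in wild type. Small heat shock proteins are abundant in muscle, and 9 muscle markers summed to 22.9, 19.8 and 26.2 CPM in knock-out, against 11.6, 19.5 and 9.85 CPM in wild type. In knock-out this was nearly all Tnnt2 (22.8 ± 3.08 CPM, against 1.09 ± 0.36 CPM in wild type), while Acta2 was at 0.117 ± 0.111 CPM in knock-out and 12.5 ± 4.73 CPM in wild type, and 2 of the 9 had no count in any library. The part of these cells in the result was not tested.

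Hspa1a and Hspa1b encode the Hsp70 proteins that are scarce in unstressed cells and strongly induced by heat. Hspa1b (ENSMUSG00000090877, GRCm38 chr17:34956436-34959238, minus strand) was at 45.7, 49.3 and 41.0 CPM in knock-out, against 7.37, 10.7 and 11.1 CPM in wild type (log2 fold change 2.23, SE 0.15, edgeR adjusted p = 1.0e-07). Hspa1a (GRCm38 chr17:34969190-34972156, minus strand) was at 7.04, 7.42 and 7.39 CPM in knock-out, against 2.38, 1.31 and 1.78 CPM in wild type (log2 fold change 1.95, SE 0.24, edgeR adjusted p = 2.0e-05). For both genes every knock-out library lay above every wild-type library. The 2 genes are neighbours and near-identical copies. Of their 50-base words, 66.3% in Hspa1a and 62.3% in Hspa1b also occur in transcripts of other genes, each other and Hspa1l among them, so how counts divide between them is uncertain. Counted as 1 gene, they had a log2 fold change of 2.19 (edgeR adjusted p = 2.4e-08) and summed to 52.6 ± 4.19 CPM in knock-out and 11.5 ± 1.63 CPM in wild type.

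The constitutive Hsp70 of the cytosol did not pass the test. This gene, Hspa8 (Hsc70), was at 669, 714 and 689 CPM in knock-out, against 706, 679 and 700 CPM in wild type, and the genotypes overlapped (log2 fold change -0.01, 95% interval -0.16 to 0.14, edgeR adjusted p = 0.92). Per kilobase of exon, Hspa1a and Hspa1b together reached 11.6 ± 0.80% of the CPM of Hspa8 in knock-out and 2.53 ± 0.39% in wild type, so the counts of the inducible genes were below those of the constitutive one in every library. Of the 50-base words of Hspa8, 39.4% also occur in transcripts of other genes, so this ratio too depends on how shared reads were counted. Hspa2, a family member best known from the testis, was at 16.0, 15.2 and 16.2 CPM in knock-out, against 6.47, 5.96 and 8.66 CPM in wild type (log2 fold change 1.16, SE 0.16, edgeR adjusted p = 6.8e-05). Of 8 markers of male germ cells, 6 had no count in any library and the sum of all 8 was 0.0316 to 0.904 CPM in knock-out and 0.0335 to 0.291 CPM in wild type. The 13 Hsp70 genes summed to 3519 ± 39.2 CPM in knock-out and 3524 ± 36.6 CPM in wild type, a difference smaller than the spread between libraries.

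The promoter sequences of this group show what the inducible copies share. Heat shock factors bind arrays of the unit GAA in alternating orientation, and windows from 250 bases before to 50 after each start (RefSeq, GRCm38.p6) were searched on both strands for 2 facing units with 2 bases between them, GAANNTTC or TTCNNGAA, each of which is its own reverse complement. The windows of Hspa1a and Hspa1b matched at 247 of the 250 bases before the start (98.8%). The stretches below run 5′ to 3′ on the strand of each gene, from 130 to 61 bases before the start for the Hsp70 pair and over the last 60 bases before the start for Dnajb4, with the match in capitals. They lie at chr17:34972217-34972286 for Hspa1a, chr17:34959299-34959368 for Hspa1b and chr3:152193846-152193905 for Dnajb4, all on the minus strand.
Hspa1a: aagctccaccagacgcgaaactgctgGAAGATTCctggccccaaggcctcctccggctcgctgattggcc
Hspa1b: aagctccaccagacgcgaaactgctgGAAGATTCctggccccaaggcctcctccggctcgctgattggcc
Dnajb4: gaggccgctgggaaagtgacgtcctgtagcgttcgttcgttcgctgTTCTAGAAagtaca
Over the stretch shown, the Hspa1a and Hspa1b promoters are identical, and the match ends 97 bases before the start. In Dnajb4 it ends 7 bases before the start. Of the 69 members with a window, 19 (27.5%) held such a match, against 17.0% of 27025 genes, and the share was 8 of 18 among members called higher, 3 of 12 among those called lower and 5 of 25 among those not called. Hspb8 and Bag3 held a match only after the start, from base 3 to 10 and from base 43 to 50. A match says only that these letters are in the window.

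Dnajb4, a J protein of the cytosol that partners with Hsp70, showed the largest rise of the J proteins. It was at 26.2, 26.4 and 28.1 CPM in knock-out, against 8.34, 9.25 and 6.73 CPM in wild type, a 3.34-fold difference without overlap (log2 fold change 1.74, SE 0.14, edgeR adjusted p = 4.9e-07). Its close relative Dnajb1, the Hsp40 that is induced together with Hsp70 by heat, was at 67.5, 72.3 and 67.2 CPM in knock-out, against 66.7, 62.0 and 71.3 CPM in wild type, and the genotypes overlapped (log2 fold change 0.05, 95% interval -0.14 to 0.24, edgeR adjusted p = 0.66, and -0.01 under upper-quartile scaling). Dnaja1, another partner of cytosolic Hsp70, was at 72.9 ± 3.48 CPM in knock-out and 70.3 ± 3.54 CPM in wild type (log2 fold change 0.05, 95% interval -0.13 to 0.24, edgeR adjusted p = 0.60).

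The known targets of heat shock factor did not share a direction. Of a list of 21 such targets, 15 of them members, 7 were higher and 7 lower (33.3% each, against backgrounds of 30.4% and 27.0%), and their median log2 fold change was 0.05, against 0.00 over all genes. Higher were Hspb8, Hspa1b, Hspa1a, Dnajb4, Cryab, Bag3 and Chordc1, and lower were Fkbp4, Hspd1, Hspe1, Hsp90ab1, Ahsa1, Stip1 and Cct4. The remaining 7, among them Hspa8, Dnajb1, Dnaja1, Hsp90aa1 and Hsph1, did not pass the test. Hsph1, an Hsp70 relative outside the symbol rule that acts as an exchange factor, was at 316 ± 6.81 CPM in knock-out and 285 ± 6.36 CPM in wild type (log2 fold change 0.15, edgeR adjusted p = 0.076), and it too lies on chromosome 5. Hsf1 itself was at 66.0, 75.4 and 62.1 CPM in knock-out, against 68.7, 67.7 and 72.9 CPM in wild type, with overlap (log2 fold change -0.04, 95% interval -0.24 to 0.16, edgeR adjusted p = 0.72). The protein is controlled by its binding partners and by phosphorylation, which these counts do not measure. Hsf2 was at 28.8, 27.5 and 26.3 CPM in knock-out, against 21.6, 22.2 and 18.9 CPM in wild type (log2 fold change 0.40, SE 0.11, edgeR adjusted p = 0.009).

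**Figure D2:**
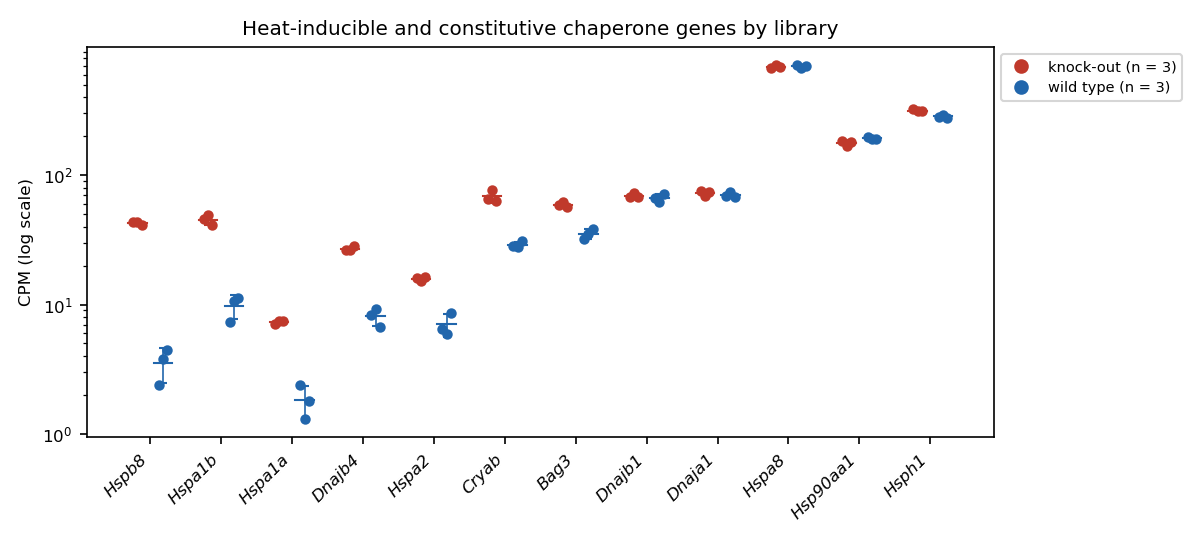
CPM by library on a log scale for heat-inducible and constitutive chaperone genes, with points for libraries, a line for the mean and bars for the SD (n = 3 each), knock-out left of wild type for each gene. Hspb8, Hspa1b, Hspa1a, Dnajb4, Hspa2, Cryab and Bag3 are higher in knock-out without overlap, while Dnajb1, Dnaja1 and Hspa8 overlap between genotypes. In knock-out, Hsp90aa1 lies below and Hsph1 above wild type without overlap, and neither passed the test. The heat shock factor targets that were called lower are not shown. Cryab and Hsph1 are outside the symbol rule.

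Of 4 further genes for heat shock factors and their regulators that were tested, 2 were higher (50.0%, against 30.4% of all genes) and 1 lower (25.0%, against 27.0%). Hsbp1, which encodes a binding protein that dampens Hsf1, was at 108 ± 9.80 CPM in knock-out and 82.5 ± 7.07 CPM in wild type (log2 fold change 0.39, edgeR adjusted p = 0.0037). Hsf4, the factor known from the lens, was at 1.72 ± 0.41 CPM in knock-out and 0.568 ± 0.221 CPM in wild type (edgeR adjusted p = 0.0060). Hsbp1l1 had a count in 1 of 3 knock-out libraries (0.0316 CPM) and was at 4.66, 1.79 and 3.08 CPM in wild type (edgeR adjusted p = 3.8e-05).

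Of the 3 Hsp90 genes, 0 were higher (against 30.4% of all genes) and 1 was lower (33.3%, against 27.0%). Hsp90ab1, the constitutive Hsp90 of the cytosol, had the highest CPM per kilobase of exon of the Hsp90 group. It was at 3708, 3959 and 3612 CPM in knock-out, against 4784, 4774 and 4955 CPM in wild type, with all knock-out libraries below all wild-type ones (log2 fold change -0.36, SE 0.08, edgeR adjusted p = 0.0015). Hsp90aa1, the inducible form, was at 183, 167 and 182 CPM in knock-out, against 198, 189 and 192 CPM in wild type, and did not pass the test although the genotypes did not overlap (log2 fold change -0.12, 95% interval -0.28 to 0.04, edgeR adjusted p = 0.18). Of the 50-base words of Hsp90aa1, 47.5% also occur in transcripts of other genes.

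Of 28 helpers of Hsp70 and Hsp90 outside the symbol rule, 4 were higher (14.3%, against 30.4% of all genes) and 8 lower (28.6%, close to the 27.0% of all genes), with a median log2 fold change of 0.02. Fkbp4, an immunophilin that escorts steroid receptors with Hsp90, was at 413, 501 and 411 CPM in knock-out, against 811, 865 and 890 CPM in wild type (log2 fold change -0.95, SE 0.09, edgeR adjusted p = 1.8e-06). Its relative Fkbp5 went the other way, at 62.2 ± 8.95 CPM in knock-out and 42.6 ± 1.89 CPM in wild type (log2 fold change 0.54, edgeR adjusted p = 0.0012). Bag5, an exchange factor of the Bag3 family, was at 26.4 ± 2.33 CPM in knock-out and 39.7 ± 5.13 CPM in wild type (log2 fold change -0.60, edgeR adjusted p = 0.0011). The helper genes Ahsa1, which speeds the ATPase of Hsp90, and Stip1, which links Hsp70 to Hsp90, were lower at 199 ± 20.3 CPM in knock-out and 249 ± 9.30 CPM in wild type for Ahsa1 and at 279 ± 24.4 CPM in knock-out and 345 ± 22.9 CPM in wild type for Stip1.

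Most of the mitochondrial chaperones fell. Of 10 members in mitochondria, 0 were higher and 8 lower (80.0%, against a background of 27.0%), with a median log2 fold change of -0.46, against 0.00 over all genes. Hspd1 (Hsp60, GRCm38 chr1:55077835-55088243, minus strand), which forms the folding chamber of the matrix, was at 350, 390 and 356 CPM in knock-out, against 551, 551 and 522 CPM in wild type (log2 fold change -0.57, SE 0.07, edgeR adjusted p = 2.8e-05). Hspe1 (Hsp10), the lid of that chamber, was at 51.1, 61.8 and 50.1 CPM in knock-out, against 73.1, 82.7 and 83.8 CPM in wild type (log2 fold change -0.56, SE 0.10, edgeR adjusted p = 5.5e-04). Neither gene overlapped between genotypes. The ratio of Hspd1 to Hspe1 in CPM per kilobase was 3.77 ± 0.23 in knock-out and 3.80 ± 0.37 in wild type, so the 2 genes fell in step. Of the 50-base words of Hspd1, 39.7% also occur in transcripts of other genes, the pseudogene Hspd1-ps3 among them.

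Hspd1 and Hspe1 are transcribed in opposite directions from a shared promoter, and their RefSeq windows overlap in 285 of 300 bases. Between the 2 RefSeq starts lie 4 alternating heat shock units in a row. By the GENCODE coordinates given above, the Hspd1 gene extends past these units, to 55088243. The units are shown in capitals in a stretch on the plus strand at chr1:55088038-55088097 (GRCm38.p6), 110 to 51 bases before the RefSeq start of Hspe1.
Hspe1: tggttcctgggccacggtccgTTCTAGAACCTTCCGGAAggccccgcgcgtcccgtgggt
A run of 3 such units with 2 bases between neighbours was found in the windows of 3 of 69 members, Hspd1, Hspe1 and Dnajb6, against 0.66% of 27025 genes. Counting exact units only, Hspd1 and Hspe1 hold longer runs than Hspa1a, Hspa1b and Dnajb4 in these windows. Units with a mismatch were not searched for. Hspd1 and Hspe1 were lower in knock-out and the other 3 genes higher, and any part of these units in that was not tested.

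Hspa9 (mortalin), the Hsp70 that pulls proteins into the matrix, was at 911, 915 and 901 CPM in knock-out, against 1149, 1192 and 1147 CPM in wild type (log2 fold change -0.35, SE 0.07, edgeR adjusted p = 6.4e-04). Its J partners were lower too. Dnaja3 (Tid1) was at 119, 128 and 105 CPM in knock-out, against 153, 139 and 159 CPM in wild type (log2 fold change -0.35, edgeR adjusted p = 0.0052). Dnajc15 was at 21.5, 27.8 and 23.1 CPM in knock-out, against 39.6, 38.8 and 39.4 CPM in wild type (log2 fold change -0.71, SE 0.11, edgeR adjusted p = 1.9e-04). Dnajc15 and Dnajc19 sit at the import motor of the inner membrane, and Dnajc19 was at 8.31 ± 0.62 CPM in knock-out and 12.7 ± 2.11 CPM in wild type (log2 fold change -0.60, edgeR adjusted p = 0.0094). The scarce Dnajc28 was at 2.32 ± 0.39 CPM in knock-out and 4.22 ± 0.79 CPM in wild type (log2 fold change -0.84, edgeR adjusted p = 0.015), a call that was lost without knock-out replicate 3 or wild-type replicate 3. Dnajc11, a protein of the contact sites between the membranes, was at 123, 151 and 118 CPM in knock-out, against 151, 157 and 159 CPM in wild type, where knock-out replicate 2 met the wild-type range (log2 fold change -0.25, edgeR adjusted p = 0.039). The call of Dnajc11 was lost without any 1 library other than knock-out replicate 2. Dnajc30 and Dnajc4 did not pass the test, and in both knock-out replicate 2 was the highest knock-out library, at 19.8 CPM for Dnajc30 and 12.5 CPM for Dnajc4. The number of mitochondrial members called lower was 6 to 9 when any 1 library was left out.

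**Figure D3:**
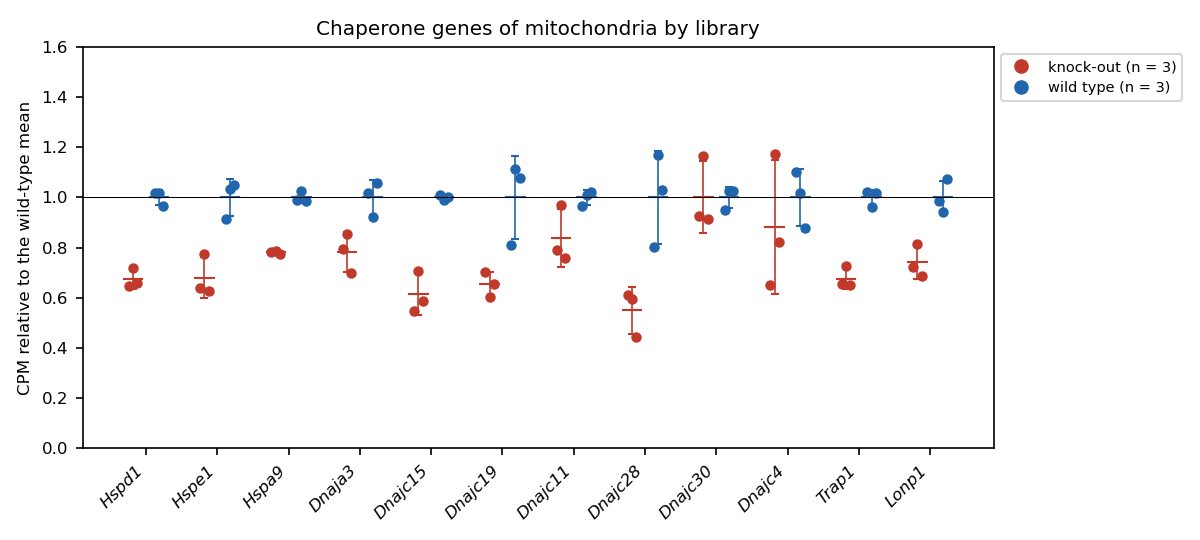
CPM of mitochondrial chaperone genes by library, divided by the wild-type mean of each gene, with points for libraries, a line for the mean and bars for the SD (n = 3 each), knock-out left of wild type. Knock-out lies below wild type without overlap in Hspd1, Hspe1, Hspa9, Dnaja3, Dnajc15, Dnajc19, Dnajc28, Trap1 and Lonp1, while Dnajc11, Dnajc30 and Dnajc4 overlap. Trap1 and Lonp1 are outside the symbol rule. Spg7 and Pam16, also outside the rule and called higher, are not shown.

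Of 14 mitochondrial folding and protease genes outside the symbol rule, 2 were higher (14.3%, against 30.4% of all genes) and 6 lower (42.9%, against 27.0%), with a median log2 fold change of -0.20. Timm44, the anchor of Hspa9 at the import channel, was at 67.8, 91.0 and 65.0 CPM in knock-out, against 147, 146 and 151 CPM in wild type (log2 fold change -0.99, SE 0.11, edgeR adjusted p = 1.3e-05). Trap1, the Hsp90 of mitochondria, was at 153, 170 and 152 CPM in knock-out, against 238, 225 and 238 CPM in wild type (log2 fold change -0.56, edgeR adjusted p = 4.2e-05). Lonp1, a protease of the matrix, was at 164 ± 14.6 CPM in knock-out and 220 ± 14.7 CPM in wild type (log2 fold change -0.43, edgeR adjusted p = 9.5e-04). The 2 called higher were Spg7 and the scarce Pam16. Spg7 was at 128 ± 2.22 CPM in knock-out and 103 ± 2.38 CPM in wild type (log2 fold change 0.31, edgeR adjusted p = 0.0025). Pam16 was at 1.09 ± 0.28 CPM in knock-out and 0.495 ± 0.034 CPM in wild type (log2 fold change 1.17, edgeR adjusted p = 0.040). The exchange factor Grpel1 did not pass the test, at 132 ± 12.1 CPM in knock-out and 134 ± 7.15 CPM in wild type. Transcripts encoded by the mitochondrial genome also took a smaller share of counts, 2.22%, 3.46% and 2.15% in knock-out libraries, against 7.42%, 7.58% and 6.18% in wild-type libraries. With the mitochondrial genome and chromosomes X, Y and 5 left out of the fit, 8 mitochondrial members were again called lower. Dnajc30 lies on chromosome 5 and so was not in that fit. Any part of the smaller mitochondrial share in these falls was not tested.

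ER chaperones leaned the other way. Of a list of 12 ER members, which may be incomplete, 7 were higher (58.3%, against a background of 30.4%) and 1 lower. Their median log2 fold change was 0.29, against 0.00 over all genes. Hspa5 (BiP), the Hsp70 of the ER, was at 1031, 1034 and 994 CPM in knock-out, against 831, 807 and 856 CPM in wild type (log2 fold change 0.29, SE 0.07, edgeR adjusted p = 0.0026). The J proteins of the ER membrane and lumen contributed most of the count. Dnajc16 was at 53.0, 42.8 and 50.9 CPM in knock-out, against 33.2, 26.9 and 29.5 CPM in wild type (log2 fold change 0.71, SE 0.12, edgeR adjusted p = 2.3e-04), and Dnajc1 at 56.1, 52.5 and 48.9 CPM in knock-out, against 37.3, 38.6 and 39.7 CPM in wild type (log2 fold change 0.45, edgeR adjusted p = 0.0013). Dnajc10, a reductase of disulfide bonds, was at 224, 194 and 212 CPM in knock-out, against 174, 177 and 163 CPM in wild type (log2 fold change 0.29, edgeR adjusted p = 0.0069). Dnajb14 was at 41.7 ± 4.17 CPM in knock-out and 32.7 ± 1.48 CPM in wild type (log2 fold change 0.35, edgeR adjusted p = 0.012), a call that was lost without knock-out replicate 1. Hspa13, an Hsp70 relative of microsomes, was at 65.4, 45.4 and 58.4 CPM in knock-out, against 43.2, 45.1 and 40.3 CPM in wild type, with knock-out replicate 2 next to the wild-type range (log2 fold change 0.40, edgeR adjusted p = 0.016). Its call was lost without knock-out replicate 1 or 3 or wild-type replicate 3. Dnajb9 (ERdj4), a target of the ER stress response that holds the sensor IRE1 in check, was at 14.5, 10.2 and 14.1 CPM in knock-out, against 8.48, 7.12 and 10.8 CPM in wild type, where knock-out replicate 2 fell within the wild-type range (log2 fold change 0.55, SE 0.19, edgeR adjusted p = 0.028). The call of Dnajb9 was lost without knock-out replicate 1 (adjusted p = 0.10) and without 3 other libraries, and without knock-out replicate 1 the count of ER members called higher was 4.

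Of the ER members that respond to unfolded protein, Hsp90b1, Dnajb11 and Dnajc3 did not pass the test. Hsp90b1 (Grp94), the Hsp90 of the ER, was at 1128, 1126 and 1074 CPM in knock-out, against 1021, 944 and 1001 CPM in wild type, without overlap (log2 fold change 0.17, 95% interval 0.01 to 0.32, edgeR adjusted p = 0.061). Dnajb11 (ERdj3), a partner of BiP in the lumen, was at 148 ± 12.6 CPM in knock-out and 139 ± 2.89 CPM in wild type (log2 fold change 0.09, edgeR adjusted p = 0.35), and Dnajc3 (p58IPK) at 154 ± 6.41 CPM in knock-out and 138 ± 8.34 CPM in wild type (log2 fold change 0.16, edgeR adjusted p = 0.10). Dnajc25, the only member of the ER list called lower, was at 19.6, 14.4 and 19.5 CPM in knock-out, against 25.7, 24.6 and 26.2 CPM in wild type (log2 fold change -0.51, edgeR adjusted p = 0.0058).

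The ER stress response element, 2 boxes CCAAT and CCACG with 9 bases between them, was searched for on both strands in the same windows. It was found in 3 of 69 members, Hspa5, Hsp90b1 and Dnajc3, against 0.14% of 27025 genes. The element of Hspa5 is shown in capitals in a stretch from 85 to 26 bases before the start, on the plus strand at chr2:34772005-34772064 (GRCm38.p6).
Hspa5: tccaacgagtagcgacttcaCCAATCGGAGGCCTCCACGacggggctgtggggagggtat
Of the 3 members with the element, Hspa5 was called higher, and Hsp90b1 and Dnajc3 had positive log2 fold changes that did not pass the test.

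Of 15 ER folding genes outside the symbol rule, 4 were higher (26.7%, against 30.4% of all genes) and 2 lower (13.3%, against 27.0%), with a median log2 fold change of 0.14. The disulfide isomerases Pdia3 and Pdia4 were higher. Pdia3 was at 1229, 1289 and 1228 CPM in knock-out, against 872, 888 and 915 CPM in wild type (log2 fold change 0.49, edgeR adjusted p = 6.7e-05), and Pdia4 at 254, 256 and 239 CPM in knock-out, against 168, 179 and 178 CPM in wild type (log2 fold change 0.52, edgeR adjusted p = 5.5e-05). The lectin chaperone Canx was at 859 ± 34.1 CPM in knock-out and 687 ± 6.94 CPM in wild type (log2 fold change 0.32, edgeR adjusted p = 0.0015). The oxidase Ero1l, which feeds disulfide bonds to the isomerases, was lower, at 71.9, 54.2 and 64.3 CPM in knock-out, against 109, 91.0 and 109 CPM in wild type (log2 fold change -0.70, edgeR adjusted p = 1.9e-04). Its relative Ero1lb was higher, at 5.58 ± 1.33 CPM in knock-out and 2.40 ± 0.59 CPM in wild type (log2 fold change 1.20, edgeR adjusted p = 0.0023). Sdf2l1 was the other gene of this list called lower, at 49.7 ± 7.85 CPM in knock-out and 65.3 ± 6.30 CPM in wild type (log2 fold change -0.40, edgeR adjusted p = 0.012).

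**Figure D4:**
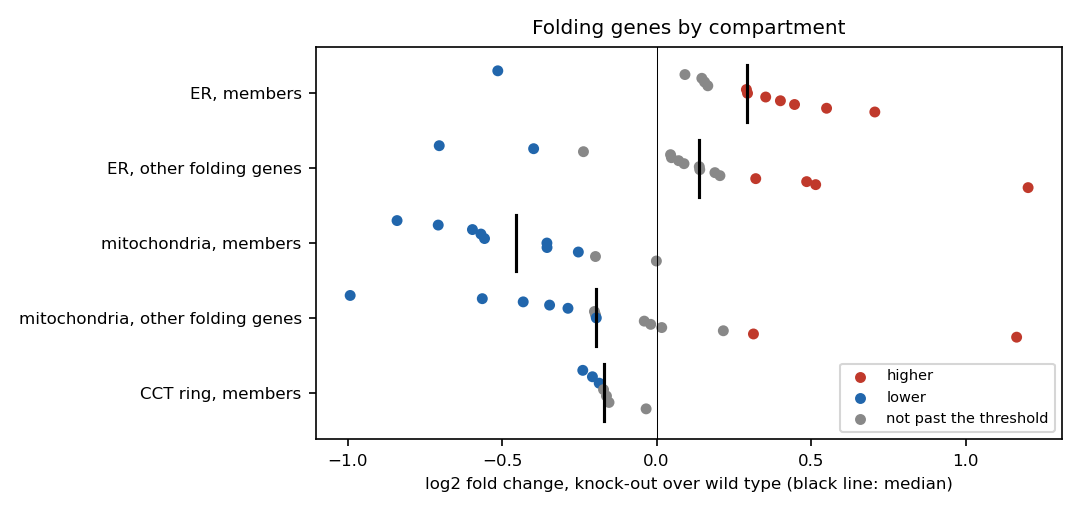
Log2 fold change (knock-out over wild type) of folding genes by compartment, with 1 point per tested gene coloured by its call at an adjusted p of 0.05, and a black line at the median. The medians are 0.29 for ER members, 0.14 for other ER folding genes, -0.46 for mitochondrial members, -0.20 for other mitochondrial folding genes and -0.17 for the CCT ring.

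The CCT ring, which folds actin and tubulin in the cytosol, showed small differences in 1 direction. Of 7 subunit genes tested, 0 were higher (against 30.4% of all genes) and 3 lower (42.9%, against 27.0%), and all 7 log2 fold changes were negative, between -0.24 and -0.03. Cct3 was at 554, 605 and 543 CPM in knock-out, against 674, 654 and 682 CPM in wild type (log2 fold change -0.24, SE 0.07, edgeR adjusted p = 0.012). Cct4 was at 444, 476 and 434 CPM in knock-out, against 525, 512 and 525 CPM in wild type (log2 fold change -0.21, edgeR adjusted p = 0.022), and Cct5 was also called lower (log2 fold change -0.19, edgeR adjusted p = 0.049). Tcp1, the subunit that gave the complex its name, was at 661 ± 27.9 CPM in knock-out and 735 ± 28.8 CPM in wild type (log2 fold change -0.15, edgeR adjusted p = 0.082). Cct2 had the highest CPM per kilobase of the ring and overlapped between genotypes, at 743 ± 34.8 CPM in knock-out and 761 ± 10.4 CPM in wild type (log2 fold change -0.03, edgeR adjusted p = 0.70). Cct6a is annotated as a processed transcript and not as protein coding in the annotation used, and so falls outside the rule; it was at 656 ± 8.49 CPM in knock-out and 596 ± 15.1 CPM in wild type (log2 fold change 0.14, edgeR adjusted p = 0.091) and lies on chromosome 5. The 3 calls rest on small margins, since 0 CCT genes were called lower without knock-out replicate 1 or without knock-out replicate 3, 1 without wild-type replicate 1 or 3, 2 without wild-type replicate 2, and 6 without knock-out replicate 2.

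Of 16 prefoldin subunits and CCT or tubulin cofactors outside the symbol rule, 3 were higher and 3 lower (18.8% each, against 30.4% and 27.0% of all genes), with a median log2 fold change of 0.09. Prefoldin hands unfolded actin and tubulin to the ring. Pfdn2 was at 107, 116 and 102 CPM in knock-out, against 86.2, 84.4 and 85.4 CPM in wild type (log2 fold change 0.35, edgeR adjusted p = 0.0024), and Pfdn1 at 115 ± 9.66 CPM in knock-out and 87.3 ± 8.38 CPM in wild type (log2 fold change 0.39, edgeR adjusted p = 0.0034). The tubulin cofactor gene Tbcd was lower, at 98.6, 96.0 and 102 CPM in knock-out, against 130, 122 and 129 CPM in wild type (log2 fold change -0.36, edgeR adjusted p = 0.0012).

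The J proteins are the largest set, with 45 genes, of which 38 were tested, 10 were higher (26.3%, against 30.4% of all genes) and 8 lower (21.1%, against 27.0%), which is near the background. Class B had 4 higher (44.4%) and 0 lower of 9 tested, class A 1 higher and 1 lower of 4 (25.0% each), and class C, whose members share only the J domain, 5 higher (20.0%) and 7 lower (28.0%) of 25. Those outside the ER and mitochondrial lists used here have diverse tasks. Dnajc5, the cysteine string protein of secretory vesicles, was at 357, 274 and 340 CPM in knock-out, against 205, 225 and 211 CPM in wild type (log2 fold change 0.60, SE 0.10, edgeR adjusted p = 2.0e-04). Dnajb2, which carries ubiquitin-binding motifs and is best known from neurons, was at 29.7, 34.0 and 33.5 CPM in knock-out, against 17.9, 18.2 and 23.5 CPM in wild type (log2 fold change 0.70, SE 0.13, edgeR adjusted p = 5.5e-04). Neither overlapped between genotypes. Dnajc14 was also called higher, at 90.9 ± 8.07 CPM in knock-out and 67.3 ± 1.29 CPM in wild type (log2 fold change 0.43, edgeR adjusted p = 0.0010).

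Lower were Dnajc21 and Dnajc17, which work with RNA. Dnajc21, a factor of ribosome assembly, was at 33.3, 34.5 and 26.6 CPM in knock-out, against 52.0, 52.2 and 53.7 CPM in wild type (log2 fold change -0.74, SE 0.11, edgeR adjusted p = 9.5e-05), and Dnajc17, linked to splicing, was at 6.35 ± 0.39 CPM in knock-out and 9.98 ± 0.30 CPM in wild type (log2 fold change -0.66, edgeR adjusted p = 0.0035). Hspa14, an Hsp70 that works at the ribosome, was at 79.1, 88.2 and 77.3 CPM in knock-out, against 99.1, 88.2 and 109 CPM in wild type, where knock-out replicate 2 met wild-type replicate 2 (log2 fold change -0.28, edgeR adjusted p = 0.025). Its call was lost without knock-out replicate 1 or 3 or wild-type replicate 1 or 3. Dnaja4 was scarce, at 5.34, 4.68 and 6.81 CPM in knock-out, against 3.55, 3.54 and 4.24 CPM in wild type (log2 fold change 0.58, SE 0.22, edgeR adjusted p = 0.044). Its call was lost without any 1 of 5 libraries, and 42.7% of its 50-base words also occur in transcripts of the neighbouring gene Wdr61. The most abundant J protein of each class per kilobase, Dnajb11 among them, did not pass the test. Dnaja2 was at 337 ± 4.18 CPM in knock-out and 338 ± 0.41 CPM in wild type (log2 fold change -0.00, 95% interval -0.14 to 0.14, edgeR adjusted p = 0.99), and Dnajc22 at 107 ± 0.26 CPM in knock-out and 116 ± 3.16 CPM in wild type (log2 fold change -0.12, edgeR adjusted p = 0.17). The Hsp70 exchange factor Hspbp1 was at 91.3 ± 10.7 CPM in knock-out and 91.6 ± 7.31 CPM in wild type (log2 fold change -0.01, edgeR adjusted p = 0.97).

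Knock-out replicate 2 set the spread of several members. In that library 11 of the 69 members deviated by more than 1.25-fold from the other knock-out libraries, 8 of them below (Hspa4l, Dnajc13, Dnajb9, Hspa13, Dnajc25, Dnajc12, Dnajc5 and Dnaja4) and 3 above (Dnajc11, Dnajc30 and Dnajc4). Knock-out replicate 1 had 4 above and 1 below its partners, and knock-out replicate 3 had 1 above and 4 below. Wild-type replicates 1, 2 and 3 had 1, 4 and 5 above and 5, 2 and 3 below. Without knock-out replicate 2, 42 members were called, 20 higher and 22 lower, against 36 in all 6 libraries. Over all genes the number called rose as well, to 8899 without that library, against 7896 in all 6 libraries. None of Hspb8, Hspa1b, Hspa1a, Dnajb4, Bag3, Hspd1, Hspe1 and Hspa9 was among the 11.

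The 16 members that were not tested had few or no counts. Cct8l1, Dnajb3, Dnajb8, Dnajc5b, Dnajc5g, Hspb3, Hspb7 and Hspb9 had 0 counts in all 6 libraries, which allows up to 0.0336 CPM in the pooled knock-out libraries and 0.0388 CPM in the pooled wild-type libraries at a limit of 3 counts. Hspa12a had 47 counts in knock-out and 8 in wild type, Dnajb7 47 in knock-out and 11 in wild type, Hspb2 33 in knock-out and 6 in wild type, and Hspa1l 16 in knock-out and 0 in wild type. Of Hspa1l, 71.4% of 50-base words also occur in transcripts of other genes, Hspa1a and Hspa1b among them, and of Hspb2 24.4%, shared with the neighbouring gene Cryab, so counts of these 2 may follow their neighbours. Dnajb13 had 6 counts in knock-out and 0 in wild type, Dnajc6 5 in knock-out and 0 in wild type, Hspa12b 0 in knock-out and 4 in wild type, and Cct6b 5 in knock-out and 18 in wild type.

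Markers of other cell types were low but differed between genotypes. The sum of 8 leukocyte markers was 23.1 to 23.8 CPM in knock-out and 3.79 to 6.98 CPM in wild type, nearly all from Csf1r and Cd68, with Ptprc at 0.434 ± 0.099 CPM in knock-out and 0.0248 ± 0.0429 CPM in wild type and 2 markers at 0 everywhere. Itgam and Lyz2 differed in the other direction, Itgam at 0.0867 ± 0.0632 CPM in knock-out and 0.620 ± 0.410 CPM in wild type, and Lyz2 at 0 in knock-out and 0.217 ± 0.258 CPM in wild type. The sum of 5 endothelial markers was 0.678 to 1.23 CPM in knock-out and 17.6 to 23.3 CPM in wild type, nearly all Tek and Vwf, with 1 at 0 everywhere. The sum of 8 fibroblast markers was 0.549 to 1.05 CPM in knock-out and 0.369 to 0.483 CPM in wild type, with 4 at 0 everywhere, and that of 7 neuron and glia markers 1.35 to 1.91 CPM in knock-out and 0.536 to 2.12 CPM in wild type, with 1 at 0 everywhere. Their part in the differences between chaperone genes was not tested.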

How the data were processed

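The deposited values are whole-number counts per Ensembl gene made by the authors, not normalized, for 3 knock-out and 3 wild-type libraries. STAR was the aligner and GRCm38 the build, per the submitters' processing notes. How multi-mapping reads and strand were treated in counting is not given in the sources used here, which bears on the near-identical copies named. Symbols, gene types, coordinates and merged exon lengths were taken from GENCODE for GRCm38, with 49326 of 49585 identifiers named; 26250 identifiers had no count in any library. No 2 libraries of a genotype agreed within sampling noise.

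Genotypes were compared with the quasi-likelihood test of edgeR 4.0.16 (R 4.3.3) on all genes, after filterByExpr (count of 10, total of 15) and with TMM scaling, Benjamini-Hochberg adjustment over the 13759 genes tested and a threshold of 0.05. The fit was tested on simulated data. Values are given as mean ± SD over 3 libraries, SE is that of the log2 fold change, intervals are 95% and cover the fitted model, and the limit of 3 counts covers counting error only. Alternatives were DESeq2 1.42.0 size factors and Wald test, limma 3.58.1 voom, other scalings and filters, an adjusted p of 0.01, a replicate term, leaving out chromosomes X, Y, 5 and the mitochondrial genome, and leaving out each library. Counting Hspa1a and Hspa1b as 1 gene was added after seeing the data.

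Members, lists and tests were chosen with earlier results of these data known. Genes named were Chuk, up to 2 rises and 2 falls per role group without overlap and with at least 5 CPM, the most abundant member per kilobase of each group, textbook members, untested members and the 3 smallest adjusted p of each other list. Some items that this rule selects are withheld from the text. Further members were named after their values were seen, to complete the ER, mitochondrial, CCT and J protein sets. So were Hsph1, Cryab, Fkbp5, Ahsa1, Stip1, Chordc1, Canx, Ero1lb, Sdf2l1, Grpel1, Spg7, Pam16 and Cct6a. Promoter windows are those of RefSeq (GRCm38.p6), which held 69 of the 85 members.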

Additional observations from a re-analysis of the deposited data

How the results depend on the processing

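No member called in the main test changed sign under any alternative, and neither did any other called gene that the naming rule selects. Of the genes selected by that rule and not called, 7 changed sign in at least 1 alternative (Hspa8, Hsf1, Hspbp1, Dnaja1, Dnaja2, Dnajb1 and Dnajb11). Each of these had a log2 fold change of at most 0.059 in size afterwards. Genes named outside that rule, such as Dnajc13, Dnajc30 and Grpel1, were not checked for sign changes unless they were called members. At an adjusted p of 0.01, 25 members were called, 15 higher and 10 lower, against 36 at 0.05, because the cut is stricter. The count over all genes at 0.01 was not taken, so this number has no background. Across 15 alternative settings the members called numbered 27 to 42, and 24 (14 higher and 10 lower) were called in the main test and in every one of them, among them Hspa1a, Hspa1b, Dnajb4, Hspa2, Bag3 and Hspa5 as higher and Hspd1, Hspe1, Hspa9, Dnaja3 and Hsp90ab1 as lower. Hspb8 is not in that count because 1 setting leaves out chromosome 5. Leaving out 1 library gave 27 to 42 members called, 16 to 20 higher and 11 to 22 lower. Upper-quartile scaling gave 18 higher and 22 lower, which turns the balance of 20 higher and 16 lower, as does leaving out knock-out replicate 2 (20 higher and 22 lower). All genes gave 3851 higher and 4131 lower under that scaling, and 4477 higher and 4422 lower without that library. A term for the replicate number (the replicate block) gave 32 members called, 19 higher and 13 lower, and lost Cct4, Cct5, Hspa14 and Hspb6. Counts over all genes are given here only for upper-quartile scaling and for the run without knock-out replicate 2. The other counts of members called in the alternatives thus stand without a background. Libraries of the same number did not deviate together (correlations of 0.11, -0.11 and -0.19), so they share only a number. Hsp90b1 was called higher with the DESeq2 Wald test, with limma voom and with chromosomes X, Y, 5 and the mitochondrial genome left out. The count of CCT genes called lower was 0 to 6 over the alternatives. Low counts limit what can be said of Hspb1, Dnaja4 and the untested members.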
